A study of Ostreococcus tauri with 30 samples.

Results

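Transcripts of fatty acid, storage lipid and sphingolipid metabolism were followed in Ostreococcus tauri, a unicellular green alga of the marine picoplankton, after a copper challenge. The members were chosen by KEGG module number. A KEGG module is a named set of gene families that carry out the steps of a pathway, and the deposited module table gives a read count for each module in each library. Of 12 module numbers named for this group 11 had counts among the 236 modules of the table. The other one, sphingosine synthesis (M00099), was not analysed here. All groups were liquid cultures of strain RCC745 in exponential phase, in aerated flasks of seawater medium with Keller nutrients, under 12 h of light and 12 h of dark. Cultures with the higher copper addition were sampled after 1, 4 and 12 h, cultures with the lower addition after 1, 4 and 12 h, and controls without added copper at 0, 1, 4 and 12 h, with 3 libraries in each of the 10 groups. The labels of the samples give the additions as 250 and 25 µM and the treatment protocol gives 2 and 0.4 µM, so no dose is attached to an effect. The sources used here give neither the hour of the light cycle at which copper was added nor whether replicates were separate cultures. The p-values therefore measure the spread between these libraries, which may be technical.

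In green algae fatty acids are made in the chloroplast by a soluble synthase system that uses acetyl-CoA and malonyl groups on a carrier protein. Outside the chloroplast, free fatty acids are generally joined to coenzyme A before they enter further routes. These are lengthening in the endoplasmic reticulum, synthesis of triacylglycerol and membrane lipids, and beta-oxidation. Triacylglycerol is the storage lipid of microalgae, which build it up in many stresses and release its fatty acids with lipases. Sphingolipids are membrane lipids built on a long-chain base. Their ceramides and free bases also act as signals.

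Gene counts per library ran from 2549094 to 5232257 with a median of 4104008.5, and module counts from 27534827 to 62565779. Module counts were 9.891 to 12.2 times the gene counts in 28 libraries, and the sources used here do not say how reads were counted per module, so intervals for counting error were not computed. In control replicate 3 at 1 h the ratio was 6.055 and in control replicate 3 at 4 h 20.05. With the gene columns of these 2 libraries exchanged the ratios were 11.03 and 11.01, so their labels in one of the tables are in doubt. Results are given with the labels as deposited, and beside them without these libraries where that ends a call. The 11 lipid modules held 2.961% to 4.991% of a library's module counts. Levels are CPM of module counts, which relate a module's count to the library's total of module counts after TMM scaling. They are shares of a library and show neither the number of cells nor the RNA per cell. A change in a module's share cannot be told apart from a change in the other counts. Modules are not compared in level with each other, because the sources used here do not say how many genes, of what length, each one sums.

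The lipid modules changed under the higher copper addition in different directions. A module was called at an adjusted p under 0.05 in the edgeR quasi-likelihood test over all 236 modules. At 1 h 1 of the 11 lipid modules was called against the control, a fall, where 5.08% of all modules were called, 2.97% higher and 2.12% lower. At 4 h 2 of 11 were called, 1 higher and 1 lower, where 8.47% of all modules were, 3.39% higher and 5.08% lower. At 12 h 5 of 11 were called, 3 higher and 2 lower, where 16.5% of all modules were, 8.9% higher and 7.63% lower. The comparisons at one time share its 3 controls. Acyl-CoA synthesis rose at 4 and 12 h. Acylglycerol degradation fell at 1 and 4 h. Elongation in the endoplasmic reticulum and sphingosine degradation fell at 12 h, while mitochondrial elongation and phosphatidylethanolamine synthesis rose at 12 h. The median log2 change of the 11 lipid modules was -0.01, 0.09 and -0.13 at 1, 4 and 12 h, and that of all modules 0.01, 0.02 and -0.00074. The groups did not overlap in 3, 7 and 6 of the 11 lipid modules at these times, and in 19.9%, 34.3% and 36.9% of all modules.

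**Figure D1:**
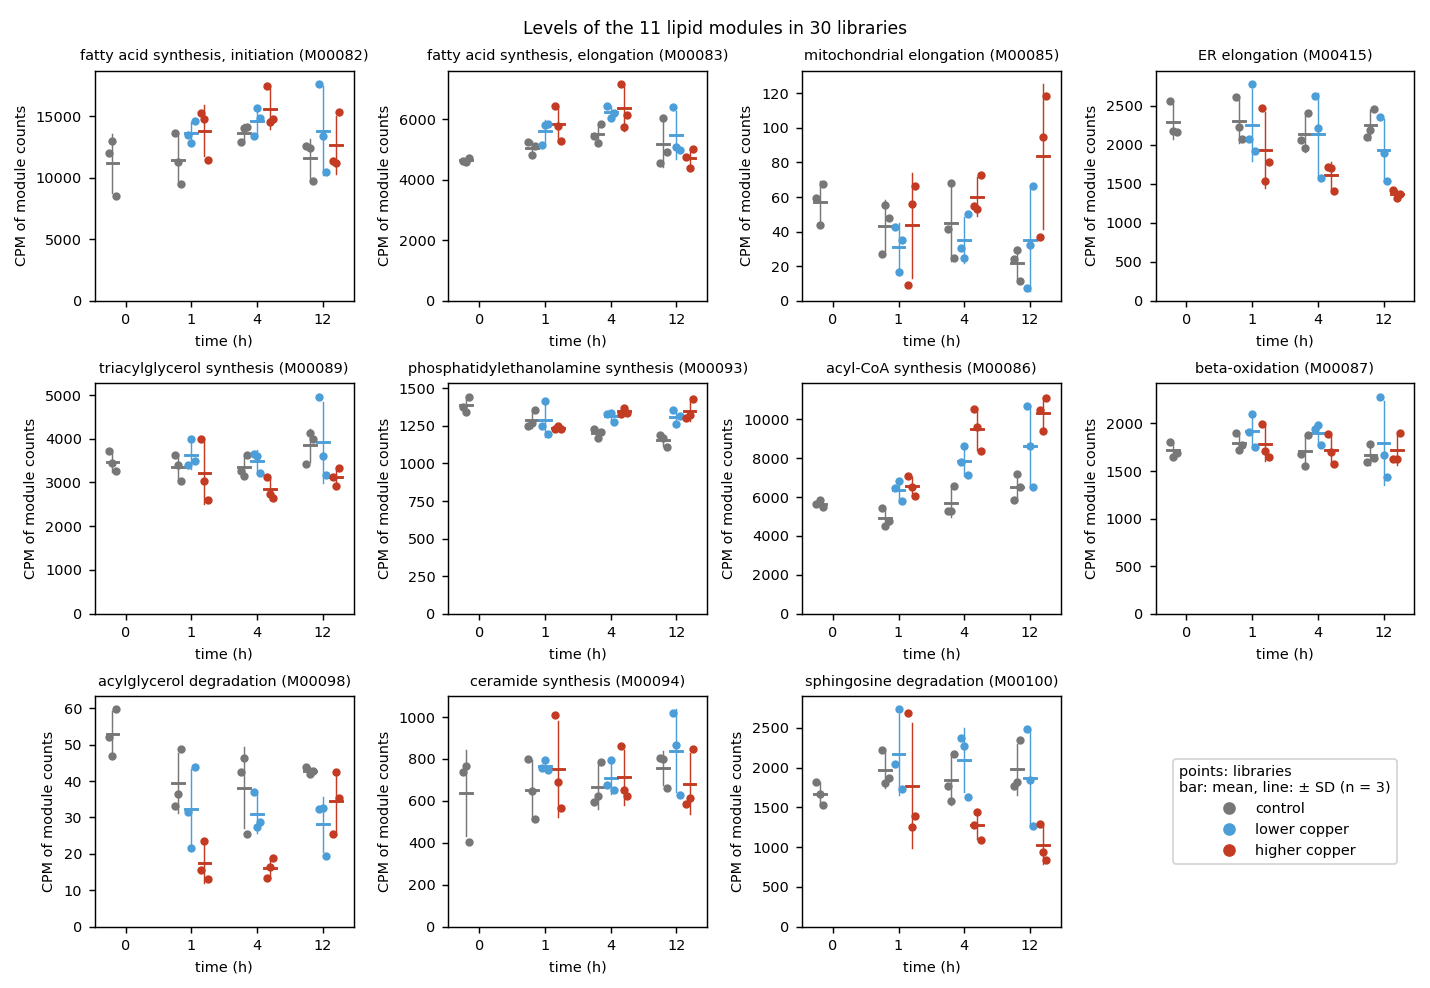
Level of each of the 11 lipid modules (CPM of module counts, y axis from 0) by time after copper addition (h), with libraries as points, group means as bars and ± SD as lines (n = 3). At 4 and 12 h the higher copper libraries of acyl-CoA synthesis lay at 8380 CPM or above and all controls at 7206 CPM or below, and at 1 and 4 h those of acylglycerol degradation lay at 23.6 CPM or below and all controls of these times at 25.5 CPM or above.

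Acyl-CoA synthesis (M00086), the step at which acyl-CoA synthetases join a free fatty acid to coenzyme A, had the smallest adjusted p of the 11 modules under copper. At 4 h the higher copper libraries had 10507, 9586 and 8380 CPM, against 5266, 5296 and 6582 CPM in the controls. At 12 h the higher copper libraries had 10453, 9375 and 11087 CPM, against 5830, 7206 and 6515 CPM in the controls. At both times every higher copper library lay above every control. The module rose by 0.73 ± 0.14 at 4 h (log2, SE), a 1.66-fold difference, and by 0.66 ± 0.14 at 12 h, a 1.58-fold difference (edgeR adjusted p = 0.0012 and 0.0034). At 1 h the higher copper libraries had 7060, 6529 and 6044 CPM, against 5459, 4511 and 4767 CPM in the controls. The groups did not overlap at 1 h, but the difference of 0.41 ± 0.14 did not pass (edgeR adjusted p = 0.095). Both rises were called without any single library and without the 2 libraries in doubt. They were lost when library sizes came from the gene table with the libraries in doubt as labelled (log2 0.39 and 0.61, adjusted p = 0.35 and 0.21), and kept with that scaling once those were left out. Controls at 0 h averaged 5667 ± 162 CPM.

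Acyl-CoA synthesis also lay above the control under the lower addition, where no difference passed. Lower copper libraries averaged 6357 ± 533 CPM at 1 h against 4913 ± 491 CPM in controls (SD, n = 3 each), 7839 ± 753 against 5715 ± 751 CPM at 4 h, and 8610 ± 2076 against 6517 ± 688 CPM at 12 h. The log2 differences were 0.37, 0.46 and 0.40 (edgeR adjusted p = 0.29, 0.24 and 0.36). At 1 and 4 h the lower copper and control libraries did not overlap, and at 12 h lower copper replicate 3, with 6530 CPM, lay inside the range of the controls. Without that library the 12 h difference was 0.57 and passed (adjusted p = 0.016). The higher addition exceeded the lower by 0.04, 0.28 and 0.26 at 1, 4 and 12 h, with 95% intervals of -0.24 to 0.33, -0.0099 to 0.56 and -0.027 to 0.54, and none of these passed (edgeR adjusted p = 0.94, 0.27 and 0.27).

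The beta-oxidation cycle (M00087), which shortens acyl-CoA to acetyl-CoA after this activation step, was not called in any comparison. Higher copper libraries averaged 1786 ± 183, 1721 ± 159 and 1719 ± 156 CPM at 1, 4 and 12 h, and lower copper libraries 1919 ± 172, 1898 ± 114 and 1796 ± 439 CPM. Controls averaged 1717 ± 80.6 CPM at 0 h and 1797 ± 89.3, 1707 ± 165 and 1671 ± 102.4 CPM at 1, 4 and 12 h (SD, n = 3 each). Its smallest unadjusted p with copper was for the lower addition at 4 h, with 1937, 1987 and 1770 CPM against 1680, 1557 and 1883 CPM in controls (log2 0.15 ± 0.12, edgeR adjusted p = 0.86). For the higher addition at 4 h its log2 difference was 0.01 with a 95% interval of -0.25 to 0.27.

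Acylglycerol degradation (M00098), the lipases that free fatty acids from tri-, di- and monoacylglycerol, fell early. At 1 h the higher copper libraries had 15.6, 23.6 and 13.02 CPM, against 33.1, 36.3 and 48.9 CPM in the controls. At 4 h they had 13.2, 16.2 and 18.8 CPM, against 42.5, 46.4 and 25.5 CPM in the controls. At both times every higher copper library lay below every control, and the lowest control at 4 h was replicate 3, one of the libraries in doubt. The module fell by 1.18 ± 0.30 at 1 h and by 1.25 ± 0.30 at 4 h (log2, SE; edgeR adjusted p = 0.026 and 0.0064). At 12 h the higher copper libraries had 25.4, 42.6 and 35.4 CPM and overlapped the controls, which had 43.9, 41.8 and 42.8 CPM (log2 -0.31 ± 0.30, edgeR adjusted p = 0.49). The change of the effect between 4 and 12 h was 0.93 ± 0.42, with a 95% interval of 0.058 to 1.81, and did not pass over all modules (edgeR adjusted p = 0.60).

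The 1 h fall of acylglycerol degradation rested on all 6 libraries compared. Leaving out control 1 h replicate 1, 2 or 3 ended the call (log2 -1.30, -1.24 and -1.01, edgeR adjusted p = 0.067, 0.094 and 0.090), as did leaving out higher copper 1 h replicate 1, 2 or 3 (-1.10, -1.48 and -1.01, adjusted p = 0.069, 0.056 and 0.12). It was also not called with both libraries in doubt left out (-1.01, adjusted p = 0.083) with their module labels exchanged (-0.86, adjusted p = 0.17) or with a fit to the 6 libraries alone (-1.22, adjusted p = 0.24). The 4 h fall was lost in 1 of the 30 fits without a library, that without higher copper 4 h replicate 1 (log2 -1.12, adjusted p = 0.055), and in 0 of the 9 other alternatives. Lower copper libraries averaged 32.3 ± 11.1, 31.0 ± 5.31 and 28.1 ± 7.48 CPM at 1, 4 and 12 h (SD, n = 3 each). Under the lower addition the log2 differences from the control were -0.29, -0.30 and -0.61 at 1, 4 and 12 h and did not pass (edgeR adjusted p = 0.85, 0.86 and 0.71). At 4 h the higher addition lay below the lower one by 0.95 on the log2 scale, with 27.2 CPM as the lowest lower copper library, but this difference did not pass (edgeR adjusted p = 0.093, 95% interval -1.57 to -0.32). At 12 h all lower copper libraries lay below all controls. Counts of this module ran from 522 to 2875 per library.

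Elongation of fatty acids in the endoplasmic reticulum (M00415), which makes very-long-chain acyl-CoA, lay lower with time under the higher addition. Its higher copper means were 1930, 1606 and 1369 CPM at 1, 4 and 12 h, and its lower copper means 2256, 2134 and 1929 CPM. Controls averaged 2299, 2140 and 2250 CPM at these times and 2296 CPM at 0 h. At 12 h the higher copper libraries had 1422, 1319 and 1367 CPM, against 2098, 2188 and 2462 CPM in the controls. All 3 lay below all controls, and the module fell by 0.72 ± 0.18 (log2, SE; edgeR adjusted p = 0.011). At 4 h the higher copper libraries, with 1717, 1695 and 1408 CPM, also lay below all controls, with 2053, 1959 and 2407 CPM, and the difference of -0.41 ± 0.18 did not pass (edgeR adjusted p = 0.16). The 12 h fall was not called without higher copper 12 h replicate 3 (log2 -0.72, adjusted p = 0.062).

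Sphingosine degradation (M00100), the phosphorylation and cleavage of free long-chain bases, fell at 12 h. At 12 h the higher copper libraries had 1292, 937.5 and 840.7 CPM, against 1769, 1817 and 2346 CPM in the controls, with no overlap. The module fell by 0.95 ± 0.26 (log2, SE; edgeR adjusted p = 0.015). At 4 h higher copper averaged 1274 ± 177 CPM and controls 1840 ± 306.9 CPM (SD, n = 3 each), again with no overlap, and the difference of -0.53 ± 0.25 did not pass (edgeR adjusted p = 0.19). In a fit to the 6 libraries of this comparison alone it passed (log2 -0.51, adjusted p = 0.044). At 1 h higher copper replicate 1 stood at 2682 CPM, above all controls, while replicates 2 and 3 stood at 1255 and 1388 CPM, below all controls. Lower copper libraries averaged 2171 ± 511, 2092 ± 403 and 1867 ± 605.7 CPM at 1, 4 and 12 h, and controls 1672 ± 145 CPM at 0 h (SD, n = 3 each). The 12 h fall was not called without higher copper 12 h replicate 2 (log2 -0.89, adjusted p = 0.055), higher copper 12 h replicate 3 (-0.83, adjusted p = 0.10) or control 12 h replicate 3 (-0.81, adjusted p = 0.072).

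Neither module was called under the lower addition, where sphingosine degradation differed from the control by 0.14, 0.19 and -0.08 and elongation in the endoplasmic reticulum by -0.03, -0.0036 and -0.22 (log2, at 1, 4 and 12 h). Higher against lower copper at 12 h gave -0.87 for sphingosine degradation (95% interval -1.40 to -0.33) and -0.49 for elongation in the endoplasmic reticulum (-0.88 to -0.11), and neither passed (edgeR adjusted p = 0.076 and 0.17). With the replicate number as a block, sphingosine degradation passed in this comparison (log2 -0.86, adjusted p = 0.042). It also passed without lower copper 12 h replicate 3 (-1.08, adjusted p = 0.020) and without higher copper 1 h replicate 1 (-0.83, adjusted p = 0.029).

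**Figure D2:**
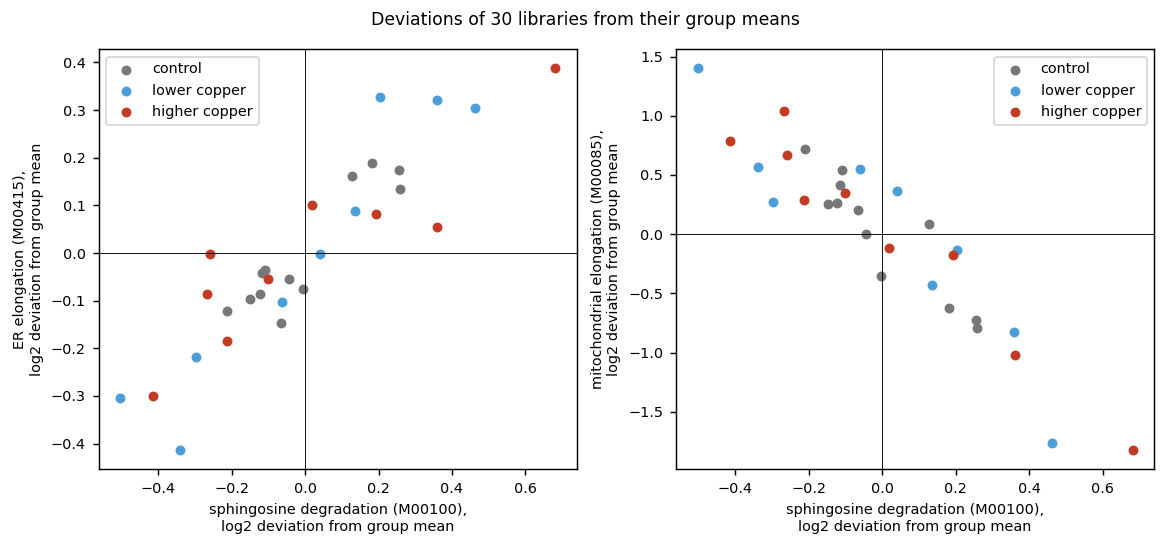
Deviation of each of the 30 libraries from its group mean (log2 CPM) for sphingosine degradation (x axis) against elongation in the endoplasmic reticulum (left) and mitochondrial elongation (right), coloured by treatment. Deviations ran in the same direction on the left (Pearson's r = 0.90) and in opposite directions on the right (r = -0.93), and higher copper 1 h replicate 1 lies at the right edge of both panels.

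These modules also varied together among replicates of a group. Across the 30 libraries, deviations from the group mean had r = 0.90 between sphingosine degradation and elongation in the endoplasmic reticulum and r = -0.93 between sphingosine degradation and mitochondrial elongation. The first component of the deviations of the 225 other modules held 42.1% of their variance. It scored 7.47 and -6.26 in lower copper 12 h replicates 1 and 3 and 7.18 in higher copper 1 h replicate 1. Elsewhere it scored -4.06 to 2.84. Its r was 0.93 with triacylglycerol synthesis, 0.89 with sphingosine degradation, 0.86 with elongation in the endoplasmic reticulum, 0.83 with beta-oxidation, 0.79 with acyl-CoA synthesis and -0.92 with mitochondrial elongation. It was 0.12 with phosphatidylethanolamine synthesis and -0.15 with acylglycerol degradation. These are descriptions over 30 libraries whose modules share a scaling and may share reads. The part of this component in the changes under copper was not tested.

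Mitochondrial elongation (M00085) lengthens acyl-CoA by acetyl-CoA units, in general with enzymes that largely overlap those of beta-oxidation. Which enzymes its counts cover is not said in the sources used here. Its deviations from the group mean had r = -0.68 with those of beta-oxidation, and its counts ran from 284 to 6831 per library. It was the most variable of the 11 modules, with a spread of 0.91 on the log2 scale within groups. At 12 h the higher copper libraries had 36.9, 94.97 and 118.6 CPM, against 24.3, 29.5 and 11.7 CPM in the controls. The lower copper means were 31.4, 35.3 and 35.4 CPM at 1, 4 and 12 h. All 3 higher copper libraries lay above all controls at 12 h, and the module rose by 1.94 ± 0.66 (log2, SE; edgeR adjusted p = 0.045). Earlier means were 43.7 and 60.3 CPM under higher copper at 1 and 4 h, against 43.3 and 44.8 CPM in controls. The controls themselves averaged 21.8 ± 9.17 CPM at 12 h and 57.0 ± 12.0 CPM at 0 h (SD, n = 3 each), a difference of -1.39 ± 0.65 that did not pass (edgeR adjusted p = 0.20). The 12 h rise was lost without any of 18 of the 30 libraries (log2 1.59 to 2.20, adjusted p = 0.051 to 0.22). These were control 0 h replicates 1 and 2, control 1 h replicates 1, 2 and 3, control 4 h replicate 1, control 12 h replicates 1, 2 and 3, lower copper 1 h replicate 3, lower copper 4 h replicates 1 and 2, lower copper 12 h replicate 2, higher copper 1 h replicate 2, higher copper 4 h replicates 1 and 3, and higher copper 12 h replicates 2 and 3. It was also lost with the replicate number as a block (log2 1.76, adjusted p = 0.052) and without the 2 libraries in doubt (1.92, adjusted p = 0.059).

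In the chloroplast pathway, neither fatty acid synthesis module was called in any comparison. Initiation (M00082), which covers the carboxylation of acetyl-CoA to malonyl-CoA and the first condensation, had its smallest unadjusted p with copper at 1 h after the higher addition. Higher copper libraries then had 15242, 14769 and 11451 CPM, against 13632, 11276 and 9487 CPM in the controls, and the groups overlapped (log2 0.27 ± 0.18, edgeR adjusted p = 0.48). Higher copper averaged 15548 ± 1618 and 12625 ± 2356 CPM at 4 and 12 h, and lower copper 13607 ± 912, 14628 ± 1160 and 13813 ± 3602 CPM at 1, 4 and 12 h. Controls averaged 13662 ± 696.6 and 11554 ± 1603 CPM at 4 and 12 h, and 11157 ± 2377 CPM at 0 h (SD, n = 3 each). Elongation (M00083), the cycle of condensation, reduction and dehydration that adds carbon units, averaged 5829 ± 575, 6348 ± 734 and 4710 ± 310 CPM at 1, 4 and 12 h after the higher addition, and 5591 ± 389, 6233 ± 200.3 and 5471 ± 791 CPM after the lower one. Controls averaged 5056 ± 228, 5498 ± 314 and 5164 ± 764 CPM at these times and 4636 ± 64.1 CPM at 0 h (SD, n = 3 each). Under the higher addition it lay above the control by 0.21 on the log2 scale at 1 and 4 h and below it by 0.13 at 12 h. The change of this effect between 4 and 12 h was -0.34 ± 0.15, with a 95% interval of -0.66 to -0.02, and did not pass over all modules (edgeR adjusted p = 0.60).

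Triacylglycerol synthesis (M00089), the stepwise acylation of glycerol 3-phosphate to the storage lipid, was not called. Higher copper libraries had 3135, 2747 and 2655 CPM at 4 h, against 3259, 3148 and 3637 CPM in the controls, and 3135, 2914 and 3338 CPM at 12 h, against 3428, 4137 and 4002 CPM in the controls. All higher copper libraries lay below all controls at both times, and the log2 differences of -0.23 ± 0.14 and -0.30 ± 0.14 did not pass (edgeR adjusted p = 0.32 and 0.14). The smallest unadjusted p was for higher against lower copper at 12 h (log2 -0.32 ± 0.14, edgeR adjusted p = 0.22), where lower copper replicate 1 stood at 4966 CPM. Lower copper averaged 3632 ± 319, 3496 ± 236 and 3916 ± 935 CPM at 1, 4 and 12 h, higher copper 3212 ± 709 CPM at 1 h, and controls 3354 ± 300.4 CPM at 1 h and 3473 ± 231 CPM at 0 h (SD, n = 3 each).

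Phosphatidylethanolamine synthesis by way of phosphatidylserine (M00093), a route to a common membrane phospholipid, was the least variable module, with a spread of 0.060 on the log2 scale within groups. At 12 h the higher copper libraries had 1304, 1320 and 1428 CPM, against 1189, 1172 and 1110 CPM in the controls. The groups did not overlap, and the module rose by 0.22 ± 0.066 (log2, SE; edgeR adjusted p = 0.022), a 1.17-fold difference. Its control level fell by 0.26 ± 0.066 between 0 h and 12 h (edgeR adjusted p = 0.019), to 1157 ± 41.7 CPM at 12 h, against 1388 ± 53.4 CPM at 0 h (SD, n = 3 each). At 1 and 4 h higher copper averaged 1236 ± 13.9 and 1346 ± 21.8 CPM, and lower copper averaged 1288 ± 112.7, 1314 ± 30.5 and 1311 ± 49.7 CPM at 1, 4 and 12 h, against 1293 ± 57.4 and 1203 ± 29.3 CPM in controls at 1 and 4 h. At 4 h all higher copper libraries lay above all controls, and the difference of 0.16 ± 0.066 did not pass (edgeR adjusted p = 0.13). It passed in DESeq2 (log2 0.16, adjusted p = 0.021) and in edgeR without lower copper 1 h replicate 2 (0.18, adjusted p = 0.048). The higher copper mean at 12 h, 1351 ± 67.6 CPM, lay between the control means of 12 h and 0 h. The copper rise was not called without higher copper 12 h replicate 3 (log2 0.18, adjusted p = 0.13), without control 12 h replicate 3 (0.18, adjusted p = 0.094) or in a fit to these 6 libraries alone (0.22, adjusted p = 0.12). The fall in controls was not called without control 0 h replicate 3 (-0.23, adjusted p = 0.089), without control 12 h replicate 3 (-0.22, adjusted p = 0.065) or in a fit to these 6 libraries alone (-0.26, adjusted p = 0.13). With gene-table library sizes and the libraries in doubt left out, neither was called (adjusted p = 0.16 and 0.18).

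Ceramide synthesis (M00094), which acylates the long-chain base, was not called in any comparison. Its means under the higher addition were 753.8 ± 229, 711.6 ± 129 and 682.4 ± 145 CPM at 1, 4 and 12 h, and those under the lower addition 765.5 ± 25.0, 706.8 ± 76.3 and 838.7 ± 198 CPM. Controls averaged 652.4 ± 143, 668.0 ± 104 and 754.8 ± 81.4 CPM at these times and 636.7 ± 204 CPM at 0 h (SD, n = 3 each), and both copper groups overlapped them each time. Its smallest unadjusted p with copper was for higher against lower copper at 12 h, where higher copper libraries had 585.4, 612.7 and 849.2 CPM, against 1022, 865.8 and 628.5 CPM in lower copper libraries (log2 -0.30 ± 0.23, 95% interval -0.78 to 0.19, edgeR adjusted p = 0.51).

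**Figure D3:**
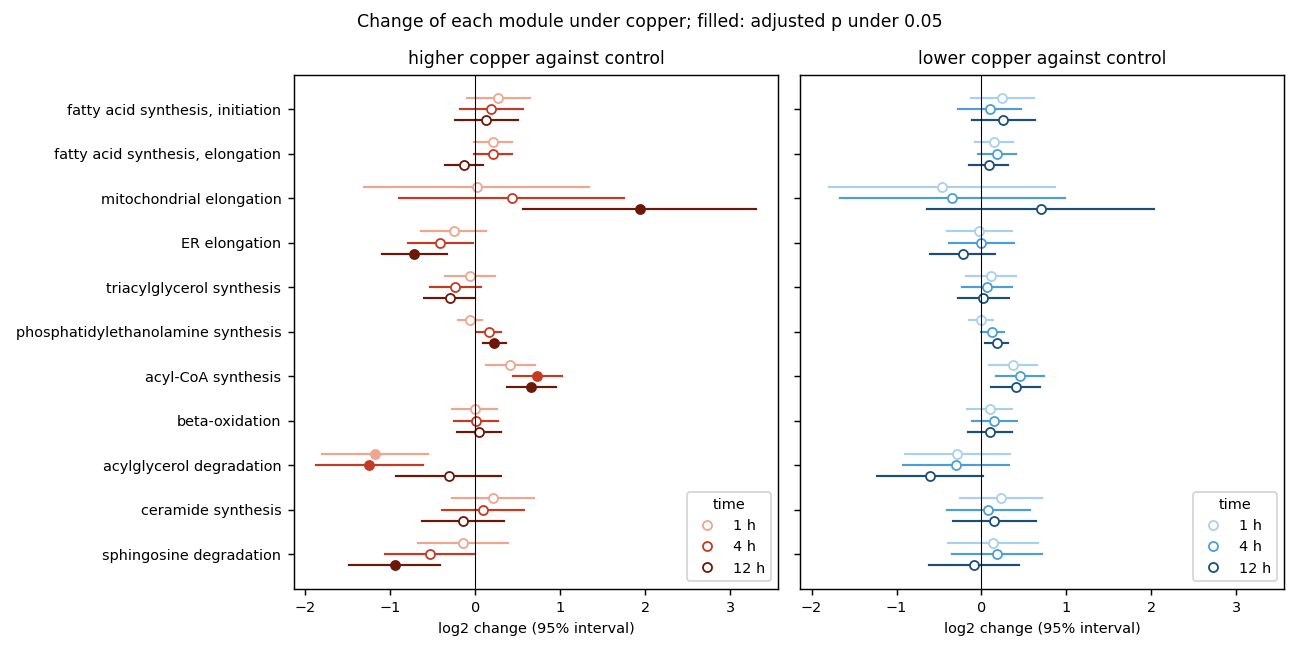
Log2 change of each lipid module against the control of the same time, for higher copper (left) and lower copper (right), at 1, 4 and 12 h, with 95% intervals from the fit over all 30 libraries. Filled points passed at an adjusted p under 0.05, which 8 did under higher copper and 0 under lower copper.

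Under the lower addition 0 of the 11 lipid modules were called by edgeR at 1, 4 and 12 h, where 0%, 0% and 0.424% of all modules were called. At an unadjusted p under 0.05 there were 1, 1 and 2 lipid modules, and 20, 16 and 16 of all 236 modules. DESeq2 called 0, 0 and 1 lipid modules, and its shares of all modules are not given here. The 1 was phosphatidylethanolamine synthesis at 12 h (log2 0.18, DESeq2 adjusted p = 0.033). Higher against lower copper also gave 0 lipid modules by edgeR at 1, 4 and 12 h, where 0%, 0.847% and 0.847% of all modules were called. At an unadjusted p under 0.05 there were 1, 4 and 3 lipid modules, and 9, 42 and 42 of all 236 modules. DESeq2 called 0, 1 and 1 lipid modules there. These were acylglycerol degradation at 4 h (log2 -0.95, DESeq2 adjusted p = 0.036) and sphingosine degradation at 12 h (-0.85, DESeq2 adjusted p = 0.021). In the main edgeR fit a change called under the higher addition alone is therefore not shown to differ from that under the lower one. For acylglycerol degradation at 4 h and sphingosine degradation at 12 h the answer depended on the method.

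The effect of copper was not shown to change between consecutive times. In the 4 tests of this change edgeR called 0 lipid modules and 0% of all modules. At an unadjusted p under 0.05 there were 1 and 2 lipid modules for the higher addition and 0 and 0 for the lower. All 236 modules gave 4 and 15 at this threshold for the higher addition and 6 and 4 for the lower. DESeq2 called 0 lipid modules in all 4 tests. For acyl-CoA synthesis under the higher addition the change was 0.32 from 1 to 4 h (95% interval -0.09 to 0.72) and -0.07 from 4 to 12 h (-0.47 to 0.33).

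In controls 0, 0 and 1 lipid modules were called by edgeR at 1, 4 and 12 h against 0 h, where 0.424%, 5.08% and 8.47% of all modules were called. Those at 4 h were 2.97% higher and 2.12% lower, and those at 12 h 4.24% higher and 4.24% lower. At an unadjusted p under 0.05 there were 0, 2 and 2 lipid modules, and 20, 34 and 54 of all 236 modules. DESeq2 called 0, 1 and 1 lipid modules, and its shares of all modules are not given here. The module at 12 h was phosphatidylethanolamine synthesis, and DESeq2 called the same module at 4 h (log2 -0.22, adjusted p = 0.0021). There it had 1230, 1172 and 1207 CPM, against 1378, 1340 and 1446 CPM at 0 h, with no overlap, and in edgeR this difference did not pass (log2 -0.21, adjusted p = 0.073). It passed in edgeR with DESeq2 size factors (log2 -0.22, adjusted p = 0.032). It also passed without any of 13 libraries (log2 -0.24, edgeR adjusted p = 0.020 to 0.032). None of these libraries belongs to the groups compared, and the log2 change was -0.242 whichever was left out. TMM scaling and the spread were estimated anew in each fit, and their part in the move from -0.21 was not tested. The 13 fits share all libraries of the groups compared and are not separate evidence. The libraries were control 1 h replicates 1 and 3, control 12 h replicates 2 and 3, lower copper 1 h replicates 2 and 3, lower copper 4 h replicates 1, 2 and 3, lower copper 12 h replicate 1 and higher copper 1 h replicates 1, 2 and 3. Acylglycerol degradation stood at 39.4 ± 8.34, 38.2 ± 11.1 and 42.8 ± 1.05 CPM in controls at 1, 4 and 12 h, against 52.9 ± 6.47 CPM at 0 h (SD, n = 3 each), and none of these differences passed.

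Modules of neighbouring routes were tested in the same fit. Of 13 modules listed for acetyl-CoA supply, other phospholipids, isoprenoids, sterols, oxylipins and glycosphingolipids, 9 had counts. Under the higher addition 1 of 9 was called at 1 h, where 5.08% of all modules were. This was the glyoxylate cycle (M00012), a bypass that turns acetyl-CoA from fatty acids into malate and succinate. Its higher copper libraries had 2.93, 5.62 and 3.52 CPM at 1 h, against 21.5, 22.9 and 12.6 CPM in the controls, with no overlap, and the lowest control was replicate 3, one of those in doubt. It fell by 2.24 ± 0.59 on the log2 scale (edgeR adjusted p = 0.030), and its counts were 98 to 1340 per library. How this call stood without single libraries is not given here. The glyoxylate cycle also differed by -1.31 and -1.48 at 4 and 12 h (log2, edgeR adjusted p = 0.15 and 0.081). Under the lower addition it differed by -1.63, -0.30 and -0.48 at 1, 4 and 12 h (edgeR adjusted p = 0.29, 0.93 and 0.99). At 4 and 12 h edgeR called 0 of 9, where 8.47% and 16.5% of all modules were called. At an unadjusted p under 0.05 there were 3 of 9 each time, and 61 and 74 of all 236 modules. DESeq2 called 1 of 9 each time, and its shares of all modules are not given here. The median log2 changes of the 9 modules were 0.12, 0.11 and 0.04 at 1, 4 and 12 h. Pyruvate oxidation (M00307), which makes acetyl-CoA from pyruvate, differed by 0.12, 0.10 and 0.04 at these times and did not pass. Whether the lipid modules and these neighbours differ was not tested.

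**Figure D4:**
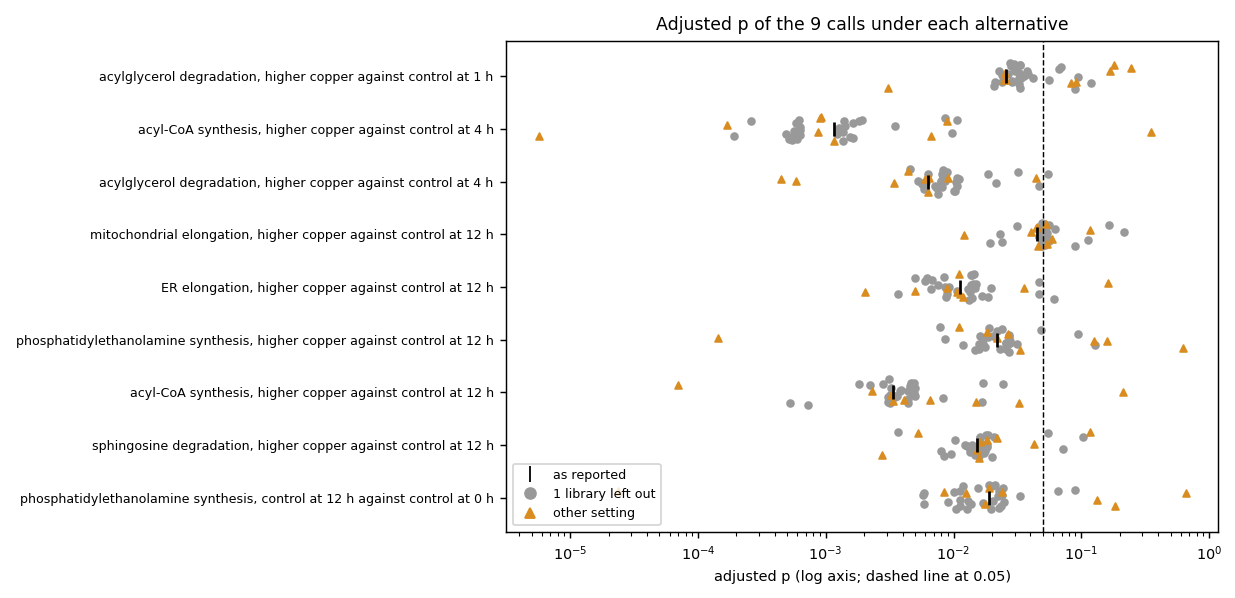
Adjusted p (log axis) of the 9 calls of lipid modules as reported (black ticks), with 1 library left out (grey points) and under the other settings (orange triangles), with a dashed line at 0.05. No grey point of acyl-CoA synthesis crosses the line, whereas 18 of the 30 of mitochondrial elongation do.

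Single libraries moved these counts. Without higher copper 12 h replicate 3, 1 of the 11 lipid modules was called against the control and 3.39% of all modules. Without control 12 h replicate 3 these were 2 and 5.93%, and without higher copper 12 h replicate 2 they were 3 and 10.2%. Acyl-CoA synthesis was called in each of these fits. At 4 h the count was 1 without higher copper 4 h replicate 1 and at least 2 without any other library. At 1 h the count was 0 without any of the 6 libraries compared and 2 without lower copper 12 h replicates 1 or 3. Acyl-CoA synthesis was called as well in the latter fits (log2 0.41 in both, edgeR adjusted p = 0.045 and 0.044). Shares of all modules are not given here for the fits at 1 and 4 h, so these counts are not read as particular to lipid modules.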

How the data were processed

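Per the labels' protocols, RNA was extracted with TRIzol, and stranded libraries of polyadenylated RNA were sequenced on an Illumina instrument. The deposited module table holds counts per KEGG module, which per the series' design text came from a homology search against KEGG. The deposited gene table (7627 genes) holds counts per gene and served for depth and an alternative scaling. An unnamed line in it, 0.000377% of its counts, was left out. DESeq2 is named, without a version, in the submitters' processing notes. Aligner, counter and build were not given in the sources used here. The authors' comparison tables were not used.

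Module counts were fitted in R 4.3.3 with edgeR 4.0.16 (TMM, no filter, quasi-likelihood, 10 group means, 30 libraries, 20 residual degrees of freedom). The fit was also run on simulated counts for higher copper against control at 4 h. Those were drawn independently for each module from the fitted spread, so they cannot test variation shared between modules. Adjusted p is Benjamini-Hochberg over 236 modules in each of 16 comparisons. The SE is the log2 change over the square root of F, and intervals are at 95%. Alternatives included DESeq2 1.42.0. Every lipid module is named, with full statistics where called, otherwise for the copper comparison of smallest unadjusted p. Members and lists were chosen with earlier results of these data known.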

Additional observations from a re-analysis of the deposited data

How the results depend on the processing

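No call of a lipid module changed direction in 30 fits with 1 library left out or 9 other alternatives. Scaled by TMM library sizes of the gene table, the counts of called lipid modules under higher copper fell to 0, 1 and 0 at 1, 4 and 12 h, and the control count at 12 h to 0. With that scaling and both libraries in doubt left out, an alternative chosen after seeing the data, the counts were 0 at 1 h, 3 at 12 h and 0 for controls at 12 h. Fitted on only the groups compared, they were 0 for higher copper at 1 h and 0 for controls at 12 h, and sphingosine degradation was gained for higher copper at 4 h. With the doubted module labels exchanged, and with both libraries left out, the count at 1 h was 0. DESeq2 called 2 and 3 for higher copper at 1 and 4 h, 1 for lower copper at 12 h, 1 and 1 for higher against lower copper at 4 and 12 h, and 1 for controls at 4 h, where DESeq2 size factors in edgeR also gave 1. With 1 library left out, counts ran from 0 to 2, 1 to 3 and 1 to 5 for higher copper at 1, 4 and 12 h, 0 to 1 for lower copper at 12 h, 0 to 1 for higher against lower copper at 12 h, and 0 to 1 for controls at 4 and at 12 h. A filter on low counts changed no call. Of the 176 pairs of lipid module and comparison, the main fit called 9 and DESeq2 15. Shares of all modules are not given beside these counts, so they are not read as particular to lipid modules. Libraries with the same replicate number in different groups had deviations correlated above 0.1 in 66 of 135 pairs (median r 0.084), and those with different numbers in 99 of 270 pairs (median r -0.014). Of 30 libraries 17 correlated best with their own number. Since the labels name nothing that a number shares and not every pair exceeded 0.1, the numbers were not taken as a pairing, though the data hint at one. With a replicate block, the count for higher against lower copper at 12 h was 1. Scaling by the gene table moved the median log2 change of all modules by -0.32 for higher copper at 4 h, and by -0.02 with the libraries in doubt left out. For higher copper at 12 h it moved this median by -0.05, both with and without the libraries in doubt. The doubtful totals enter that scaling by construction, and the causes of the other lost calls were not tested. How reads were counted per module is not stated, so the depth behind low modules is unknown.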

Other observations

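Among the neighbouring modules, phosphatidylcholine synthesis by methylation (M00091) had 124 to 734 counts per library, and 17 of its 30 counts were whole multiples of 62. No other of the 20 modules listed here, members and neighbours together, had more than 6 counts that were multiples of any one number between 20 and 200. Ergocalciferol synthesis (M00102), a sterol route, lay above the control by 0.16, 0.31 and 0.29 on the log2 scale at 1, 4 and 12 h after the higher addition, with no overlap of the groups at any of these times, and did not pass (edgeR adjusted p = 0.47, 0.070 and 0.052).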
